A study of Homo sapiens with 8 samples.

Results

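The region described here was the 5 Mb of chromosome 8q24 that hold MYC, from 125 to 130 Mb on hg38. Its members were the peaks of open chromatin whose midpoint lay within those limits, 392 of the 159451 peaks measured in all. The position alone decides membership, but the region itself was chosen by measured values: the MYC promoter and the surrounding peaks had been seen to be higher in the cisplatin-resistant line than in control cells. Every value that involves the cisplatin-resistant line is therefore a description and carries no test. The control libraries were the other side of that choice, so tests against control share them, and low control values can favour a rise. The comparison of the dual- with the paclitaxel-resistant line uses neither side. ATAC-seq reads out open chromatin through the Tn5 transposase, which cuts DNA that is not wrapped in nucleosomes, and it was applied to A2780 cells, a long-established human line from an ovarian carcinoma. The 4 groups were the cisplatin-resistant line (CpR, treatment label Cisplatin), the paclitaxel-resistant line (TxR, treatment label Paclitaxel), the dual-resistant line (TxCpR, treatment label Cisplatin/Paclitaxel) and control A2780 cells (treatment label NA). All carry the genotype label WT. Cisplatin is a platinum compound that crosslinks DNA, and paclitaxel stabilises microtubules. Each group had 2 libraries. The sources used here do not give whether drug was present at collection or whether each resistant line is 1 clone. Nothing states that the libraries of a line came from separate cultures, so the p-values measure only the spread between these libraries, which may be technical.

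MYC encodes a transcription factor that drives growth, ribosome production and metabolism, and it is an oncogene in many cancers. It lies in a gene-poor stretch beside PVT1, a long non-coding RNA gene whose body holds enhancers and whose promoter is known to compete with that of MYC. Enhancers far to either side of MYC, some inside the non-coding genes CCAT1, CASC8, CASC21 and CCDC26, are known from other cell types to contact the MYC promoter, each in its own set of tissues.

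Values are given in CPM, the reads in a peak scaled to the total reads in all peaks of that library, with every peak 1001 bases wide. The libraries held between 7693492 and 9304798 reads in peaks, so 3 reads corresponded to 0.322 to 0.390 CPM. A2780 is labelled an ovarian cancer line. Of 9 ovarian and epithelial marker genes, 8 had a peak at a gene start or end, with line means from 0.636 CPM for PAX8 in the paclitaxel-resistant line to 11.5 CPM for KRT8 in the cisplatin-resistant line, and MUC16 had none. Of 10 markers of blood, endothelial and stromal cells, 6 had a peak, and PTPRC, PECAM1 and CDH5 were among those that had none. Their line means ran from 0.515 CPM for DCN in control cells to 25.8 CPM for LUM in the paclitaxel-resistant line, where DCN stood at 14.8 CPM.

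The region as a whole was far higher in the cisplatin-resistant line than in any other. The 392 peaks summed to 3248 and 3165 CPM in the cisplatin-resistant libraries, to 1185 and 1200 CPM in the paclitaxel-resistant libraries, to 1248 and 1171 CPM in the dual-resistant libraries, and to 1210 and 1224 CPM in the control libraries. The cisplatin-resistant libraries stood apart from the other 6, which lay within a narrow band, with the paclitaxel-resistant and control libraries inside the range of the dual-resistant ones. The line means were 3206 ± 58.5, 1193 ± 11.2, 1209 ± 54.2 and 1217 ± 10.1 CPM in that order (SD, n = 2 each). Relative to control, the ratio of means was 2.63 for the cisplatin-resistant line, 0.980 for the paclitaxel-resistant line and 0.994 for the dual-resistant line. In bulk data, a peak open in more of the cells and a peak more open in each cell cannot be told apart. No measurement of DNA copy number was used here, so the number of copies of the region and the openness of each copy cannot be told apart either.

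**Figure D1:**
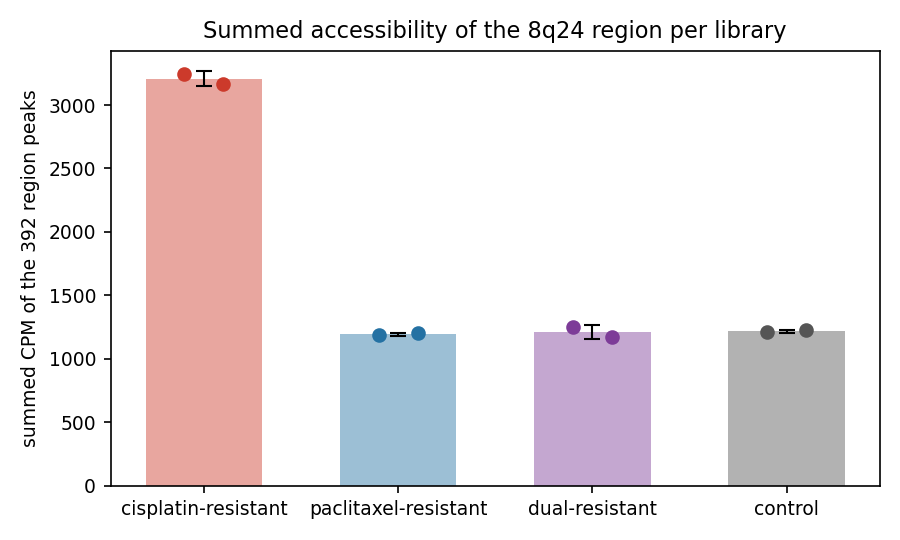
Summed CPM of the 392 peaks of the region on the vertical axis, by line. Points are libraries, bars the mean of 2 libraries and error bars the SD. The cisplatin-resistant libraries stand at 3248 and 3165 CPM and the other 6 libraries between 1171 and 1248 CPM.

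The summed signal was compared with that of the other 5 Mb windows of the genome, 595 in all with at least 20 peaks, in 1 limma fit. The sum of the region in the paclitaxel-resistant line differed from control by -0.03 on the log2 scale (SE 0.02, adjusted p = 0.218), and that in the dual-resistant line by -0.01 (adjusted p = 0.679). Dual- minus paclitaxel-resistant was 0.02 (adjusted p = 0.405). In these 3 comparisons 81.0%, 78.5% and 88.4% of all windows were called at an adjusted p under 0.05, and the region was not. Other scalings of the libraries moved these near-zero sums to either side of 0. After median-ratio scaling, which sets each library to the median of its peak ratios, the paclitaxel-resistant difference was 0.14 (adjusted p = 5.02e-07) and dual- minus paclitaxel-resistant was -0.23 (adjusted p = 1.20e-12). The cisplatin-resistant difference of the sum was 1.40, rank 3 of the 595 windows, of which 88.7% were called in that contrast; since this contrast chose the region, nothing is read from either.

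The higher signal in the cisplatin-resistant line was spread over many peaks rather than resting on a few. However, 315 of the 392 carry the name of a peak called in that line, as do 34.3% of all peaks. The other 77 had a median log2 difference from control of 0.07 and summed to 346 CPM there and 399 CPM in control. The cisplatin-resistant line had the highest mean at 319 of the 392 peaks (81.4%), the dual-resistant line at 39, the paclitaxel-resistant line at 17 and control at 17. The median peak had 4.51 CPM in the cisplatin-resistant line, 1.31 CPM in the paclitaxel-resistant line, 1.88 CPM in the dual-resistant line and 1.74 CPM in control. At 192 peaks the cisplatin-resistant mean was at least 2-fold that of each other line. Peaks above 10 CPM numbered 85 in the cisplatin-resistant line, 23 in the paclitaxel-resistant line, 18 in the dual-resistant line and 23 in control.

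Set against control peak by peak on the log2(CPM + 0.5) scale, which understates the change of low peaks, the cisplatin-resistant line had a median difference of 1.11 over the 392 peaks. The median was -0.09 over all peaks and 0.30 over the rest of chromosome 8. By limma, 221 peaks were higher and 15 lower at an adjusted p under 0.05, where 18.3% of all peaks were higher and 14.9% lower (33.2% in either direction). Since this contrast chose the region, nothing is read from those counts. Without cisplatin-resistant library 1 the median difference was 1.03, and without library 2 it was 1.04, each over the 355 peaks then tested. With all 8 libraries, the median difference was 1.10 for the 238 peaks with a mean under 3 CPM. It was 1.44 for the 120 peaks between 3 and 10 CPM and 0.81 for the 34 peaks above 10 CPM. It was 1.01 for the 22 peaks at gene ends, 1.11 for the 229 within genes and 1.18 for the 141 between genes.

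The paclitaxel- and dual-resistant lines showed no such shift of the region. In the paclitaxel-resistant line 23 peaks rose and 32 fell against control, 5.87% and 8.16% of the 392, where 7.26% of all peaks rose and 9.17% fell. In the dual-resistant line 9 rose and 20 fell, 2.30% and 5.10%, where 8.11% of all peaks rose and 5.39% fell. In dual- minus paclitaxel-resistant 41 peaks were higher and 23 lower, 10.5% and 5.87%, where 14.9% of all peaks were higher and 7.44% lower. All 6 shares lay below those of all peaks in this fit, but nothing is read from that. At 32 of the 392 peaks both paclitaxel-resistant libraries had 3 reads or fewer, and at 20 both dual-resistant ones. Peaks low in both lines compared are rarely called. With either cisplatin-resistant library left out, 355 of the 392 were still tested. By edgeR 26 of the 392 fell in the paclitaxel-resistant line, as did 9793 of all 158698 peaks. The median differences of the 392 peaks, in the same order of comparisons, were -0.21, 0.05 and 0.28, beside -0.14, 0.08 and 0.23 over all peaks.

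These counts depend on the libraries and the scaling. Higher calls in the paclitaxel-resistant line numbered 14 without either of its libraries and 15 without control library 1. Higher calls in the dual-resistant line numbered 2 without its library 1, and lower calls 13 without its library 2 and 12 without control library 2. Dual- minus paclitaxel-resistant had 24 higher calls without dual-resistant library 1. Median-ratio scaling brought the median of all peaks to 0.00 in the paclitaxel-resistant contrast and to 0.03 in dual- minus paclitaxel-resistant. The paclitaxel-resistant calls were then 27 higher and 25 lower, beside 16303 and 10262 of 158666 over all peaks. Dual- minus paclitaxel-resistant calls were 23 higher and 32 lower under median-ratio scaling, 20 and 26 under quantile scaling, and 26 and 35 by edgeR. Over all peaks they were 14254 and 19605 of 158666, 12376 and 12133 of 158741, and 13269 and 20170 of 158698. Calls over all peaks thus moved with the scaling too, and they dropped in each fit above with a library left out.

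MYC itself was most open in the cisplatin-resistant line, next in the paclitaxel-resistant line, and lowest in dual-resistant and control cells. Its promoter peak is centred 0.567 kb past the annotated start of the gene. It had 89.4 and 81.6 CPM in the cisplatin-resistant libraries, 67.3 and 69.9 CPM in the paclitaxel-resistant libraries, 48.7 and 42.7 CPM in the dual-resistant libraries, and 44.6 and 37.8 CPM in the control libraries. Both cisplatin-resistant libraries lay above both paclitaxel-resistant ones, which lay above all dual-resistant and control libraries, and those of dual-resistant and control overlapped. The means were 85.5 ± 5.48, 68.6 ± 1.87, 45.7 ± 4.28 and 41.2 ± 4.77 CPM in that order (SD, n = 2 each).

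The MYC promoter rose 1.66-fold in the paclitaxel-resistant line, a log2 difference of 0.73 from control (95% interval 0.54 to 0.93, limma adjusted p = 1.71e-09). The control libraries entered the choice of the region and this peak, which can favour a rise against them. In the dual-resistant line the MYC promoter did not pass the test, at 0.15 (95% interval -0.05 to 0.35, adjusted p = 0.367). Under quantile scaling it did, at 0.31 (adjusted p = 0.0244). Dual- minus paclitaxel-resistant was -0.58 (95% interval -0.78 to -0.39, adjusted p = 1.43e-06); it was -0.29 under quantile scaling (adjusted p = 0.0322) and -0.85 by edgeR (adjusted p = 4.85e-13). The cisplatin-resistant mean was 2.07-fold that of control, a log2 difference of 1.05. With 2 libraries against 2, an exact permutation test of a single peak could not go below p = 0.333, so these tests rest on the spread shared across all peaks.

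Relative to the rest of its region, the promoter was highest in the paclitaxel-resistant line. After the median of the 392 peaks was subtracted, the MYC promoter stood at -0.07 in the cisplatin-resistant line, 0.94 in the paclitaxel-resistant line and -0.86 in dual- minus paclitaxel-resistant. The promoter made up 2.67% of the summed CPM of the region in the cisplatin-resistant line, 5.75% in the paclitaxel-resistant line, 3.78% in the dual-resistant line and 3.39% in control. It was the strongest peak of the region in each resistant line and ranked 3 in control.

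The peaks next to the MYC promoter gave a mixed picture. CASC11 is a long non-coding RNA gene whose end nearest MYC lies just before it, and the peak there, chr8:127733814-127734814, had 29.6 and 29.1 CPM in cisplatin-resistant, 24.2 and 22.4 CPM in paclitaxel-resistant, 19.3 and 19.3 CPM in dual-resistant, and 16.6 and 13.1 CPM in control libraries. The order of the lines was that of the MYC promoter, with no overlap between any pair. It rose by 0.64 in the paclitaxel-resistant line (adjusted p = 0.000666), but did not pass the test without control library 2 (0.47, adjusted p = 0.0695). In the dual-resistant line the difference from control was 0.38 (adjusted p = 0.0828), and it passed without control library 1 (0.54, adjusted p = 0.0399).

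The PVT1 promoter did not follow this order. The peak at the end of PVT1 that faces MYC, chr8:127793521-127794521, had 12.7 and 14.3 CPM in cisplatin-resistant, 16.1 and 15.3 CPM in paclitaxel-resistant, 17.6 and 17.0 CPM in dual-resistant, and 16.1 and 13.6 CPM in control libraries. All 4 lines lay close together, and the cisplatin-resistant libraries were not above the others. The differences from control were -0.13 in the cisplatin-resistant, 0.08 in the paclitaxel-resistant (adjusted p = 0.814) and 0.21 in the dual-resistant line (adjusted p = 0.476).

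The body of PVT1 held 104 of the 392 peaks, and these were higher in the cisplatin-resistant line while the promoter was not. They summed to 895 CPM in the cisplatin-resistant line, 230 CPM in the paclitaxel-resistant line, 297 CPM in the dual-resistant line and 272 CPM in control. The peak chr8:127851376-127852376, 116 kb past the MYC start, had 60.3 and 58.2 CPM in cisplatin-resistant, 5.34 and 3.71 CPM in paclitaxel-resistant, 5.81 and 5.59 CPM in dual-resistant, and 4.81 and 4.51 CPM in control libraries. Only the cisplatin-resistant libraries were high there, with a mean 12.7-fold that of control. Of the 104 peaks, 1 rose and 4 fell in the paclitaxel-resistant line, where 7.26% of all peaks rose and 9.17% fell. In the dual-resistant line 2 rose and 1 fell, where 8.11% of all peaks rose and 5.39% fell.

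At the low-coordinate end of the region, WASHC5, which encodes a subunit of the actin-regulating WASH complex, and NSMCE2, which encodes a SUMO ligase of the SMC5/6 DNA repair complex, share a peak, chr8:125091214-125092214, whose level was much alike in all libraries. It had 25.4 and 30.2 CPM in cisplatin-resistant, 26.5 and 24.8 CPM in paclitaxel-resistant, 21.9 and 24.7 CPM in dual-resistant, and 20.3 and 22.9 CPM in control libraries. Neither the paclitaxel-resistant difference of 0.25 (adjusted p = 0.252) nor the dual-resistant difference of 0.11 (adjusted p = 0.697) passed the test, although the paclitaxel-resistant one did under median-ratio scaling (0.41, adjusted p = 0.0287). Inside NSMCE2, in contrast, 22 peaks summed to 145 CPM in the cisplatin-resistant line, 23.3 CPM in the paclitaxel-resistant line, 28.5 CPM in the dual-resistant line and 26.8 CPM in control.

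TRIB1 encodes a pseudokinase that directs proteins to degradation. Its peak at chr8:125429736-125430736 had 82.8 and 82.1 CPM in cisplatin-resistant, 52.3 and 54.6 CPM in paclitaxel-resistant, 37.6 and 40.3 CPM in dual-resistant, and 54.1 and 55.7 CPM in control libraries. The dual-resistant libraries were the lowest and the paclitaxel-resistant ones overlapped control. TRIB1 fell by 0.49 in the dual-resistant line (adjusted p = 6.40e-05), with a difference of -0.04 in the paclitaxel-resistant line (adjusted p = 0.852). Dual- minus paclitaxel-resistant was -0.45 (adjusted p = 0.000182); under quantile scaling it was -0.19 (adjusted p = 0.203).

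LRATD2 fell in the paclitaxel- and dual-resistant lines. Its peak at chr8:126557924-126558924 had 19.4 and 22.6 CPM in cisplatin-resistant, 6.92 and 5.51 CPM in paclitaxel-resistant, 10.3 and 6.34 CPM in dual-resistant, and 15.7 and 12.1 CPM in control libraries. The paclitaxel- and dual-resistant libraries lay below both control libraries, and the cisplatin-resistant ones above. LRATD2 fell by 1.10 in the paclitaxel-resistant line (adjusted p = 1.03e-05) and by 0.74 in the dual-resistant line (adjusted p = 0.00618). The dual-resistant difference missed the threshold without dual-resistant library 2, at -0.41, or control library 1, at -0.55.

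Past MYC, the peaks at the ends of CCDC26 and GSDMC went different ways in the cisplatin-resistant line. The 10 peaks within CCDC26, its end peak among them, summed to 64.0 CPM in the cisplatin-resistant line and 29.6 CPM in control. They summed to 34.6 CPM in the paclitaxel-resistant line and 37.8 CPM in the dual-resistant line. CCDC26 is a non-coding RNA gene, and the peak at its end, chr8:129679030-129680030, had 1.35 and 0.702 CPM in cisplatin-resistant, 0.728 and 1.80 CPM in paclitaxel-resistant, 4.33 and 4.41 CPM in dual-resistant, and 4.55 and 3.73 CPM in control libraries. The cisplatin- and paclitaxel-resistant libraries were low, and the dual-resistant ones lay within the control range. It fell by 1.46 in the paclitaxel-resistant line (adjusted p = 0.00381), stood at 0.07 in the dual-resistant line (adjusted p = 0.938), and was higher by 1.53 in dual- minus paclitaxel-resistant (adjusted p = 0.00189). Without paclitaxel-resistant library 1 neither call remained, at -1.01 (adjusted p = 0.151) and 1.08 (adjusted p = 0.0951), and without control library 1 the fall was -1.33 (adjusted p = 0.0692).

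GSDMC encodes a gasdermin, a pore-forming protein. Its peak at chr8:129786521-129787521 had 7.54 and 5.61 CPM in cisplatin-resistant, 0.607 and 0.787 CPM in paclitaxel-resistant, 0.866 and 1.29 CPM in dual-resistant, and 1.30 and 2.19 CPM in control libraries. The cisplatin-resistant libraries alone were above 3 CPM. Neither other contrast passed, at -0.88 in the paclitaxel-resistant line (adjusted p = 0.148) and -0.49 in the dual-resistant line (adjusted p = 0.507). POU5F1B, CASC8, PCAT1, CASC19 and CYRIB had no peak within 1 kb of a gene end that counted as a member under the same rule.

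**Figure D2:**
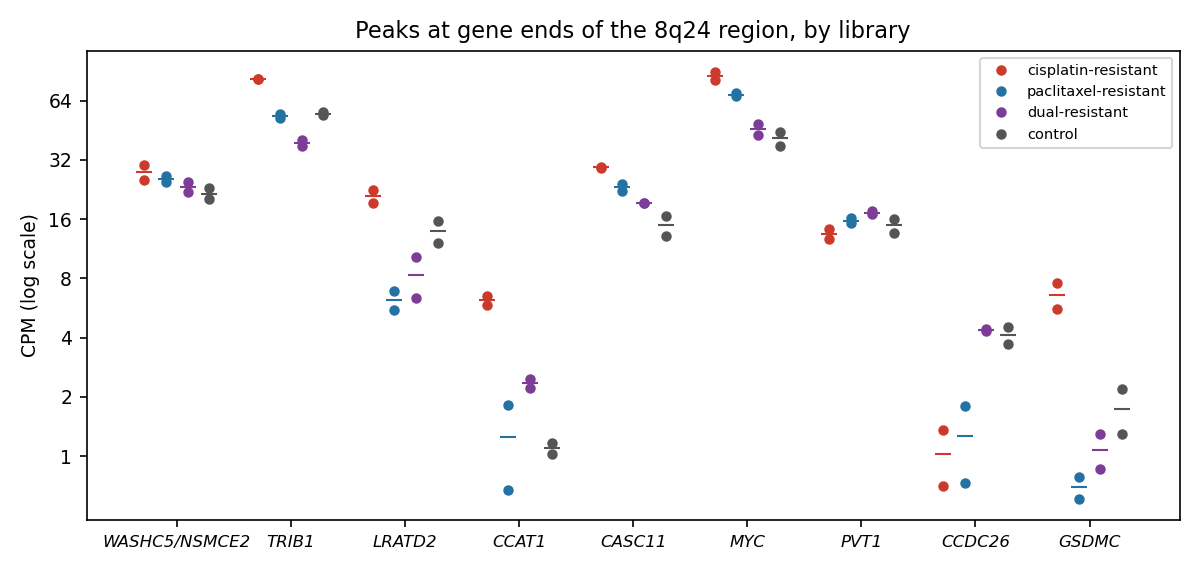
CPM on a log axis at the peaks at gene ends, ordered along the chromosome. Points are libraries and short lines the mean of 2. The means of MYC and CASC11 stand in the order cisplatin-, paclitaxel-, dual-resistant and control, highest first, while PVT1 lies between 12.7 and 17.6 CPM in all libraries.

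The non-coding genes before MYC lay in the stretch where the cisplatin-resistant line had its largest ratio to control. The peak at the end of CCAT1, chr8:127206054-127207054, had 5.85 and 6.55 CPM in cisplatin-resistant, 1.82 and 0.674 CPM in paclitaxel-resistant, 2.23 and 2.47 CPM in dual-resistant, and 1.17 and 1.03 CPM in control libraries. The cisplatin-resistant libraries were above all others, and the dual-resistant difference from control of 0.83 did not pass the test (adjusted p = 0.169). The 5 peaks within CASC8 summed to 48.1 CPM in the cisplatin-resistant line, 2.23 CPM in the paclitaxel-resistant line, 3.27 CPM in the dual-resistant line and 2.85 CPM in control. The 6 peaks within CASC21 summed to 55.2 CPM in the cisplatin-resistant line, against 2.45 CPM in paclitaxel-resistant, 3.95 CPM in dual-resistant and 2.98 CPM in control cells; the genes overlap and share peaks.

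Cut into bins of 500 kb, the region showed how the lines differed along its length. From 0.74 to 0.24 Mb before the MYC start, 16 peaks summed to 118 CPM in the cisplatin-resistant line, 9.38 CPM in the paclitaxel-resistant line, 14.5 CPM in the dual-resistant line and 12.1 CPM in control, so the cisplatin-resistant line was 9.78-fold control. In the bin that holds MYC and most of PVT1, 101 peaks summed to 1019, 354, 390 and 358 CPM in the same order of lines, 2.85-fold control in the cisplatin-resistant line. In the next bin, 0.26 to 0.76 Mb past MYC, 46 peaks summed to 366 CPM in the cisplatin-resistant line, 51.2 CPM in the paclitaxel-resistant line, 69.9 CPM in the dual-resistant line and 64.8 CPM in control, 5.65-fold. The median difference of the cisplatin-resistant line was above 0 in all 10 bins, from 0.56 to 2.57; these extremes came from bins of 8 and 16 peaks, and over the bins with at least 20 peaks the range was 0.68 to 1.67.

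**Figure D3:**
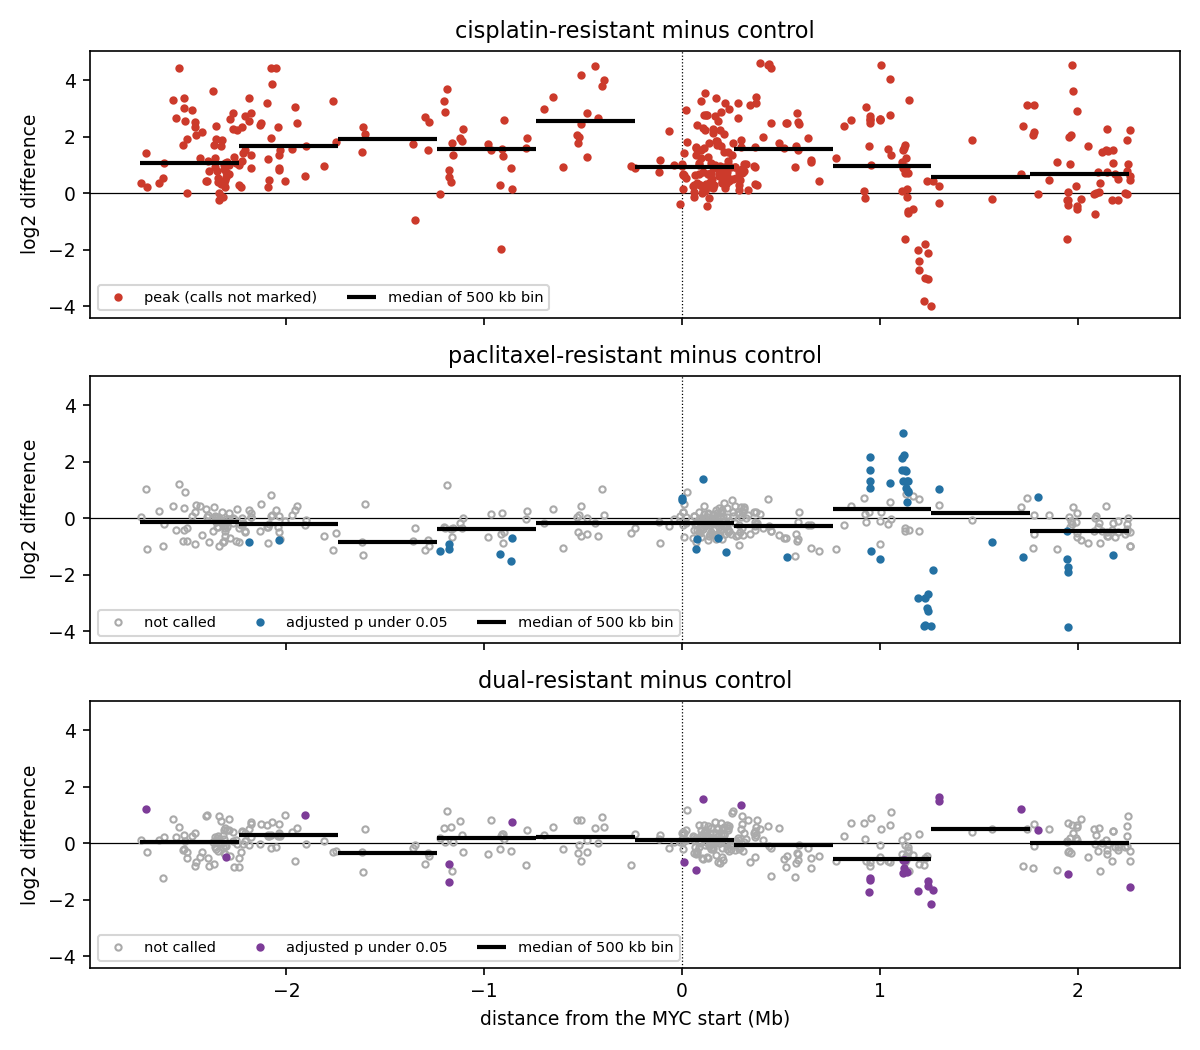
Log2 difference from control of each of the 392 peaks against distance from the MYC start in Mb, 1 panel per resistant line. Filled points in the lower panels passed an adjusted p under 0.05, and black bars are medians of 500 kb bins. The cisplatin-resistant medians run from 0.56 to 2.57, while paclitaxel- and dual-resistant calls gather about 1 Mb past MYC.

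The peaks that were largest in the cisplatin-resistant line relative to control reached at most 2.08 CPM in any other library. The peak chr8:128127328-128128328, 392 kb past the MYC start, had 22.1 and 21.6 CPM in cisplatin-resistant, 0.486 and 0.562 CPM in paclitaxel-resistant, 0.742 and 0.860 CPM in dual-resistant, and 1.17 and 0 CPM in control libraries. The peak chr8:128176423-128177423, at 441 kb, had 44.7 and 41.6 CPM in cisplatin-resistant, 1.09 and 0.899 CPM in paclitaxel-resistant, 1.98 and 0.645 CPM in dual-resistant, and 2.08 and 0.772 CPM in control libraries. The peak chr8:128740289-128741289, at 1005 kb, had 19.2 and 15.2 CPM in cisplatin-resistant libraries and at most 0.644 CPM in any other. The log2 differences of the 3 peaks were 4.61, 4.59 and 4.54, and at each both cisplatin-resistant libraries lay far above the other 6.

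Other strong distal peaks were open in every line. The peak within TRIB1, chr8:125431526-125432526, had 53.3 and 51.6 CPM in cisplatin-resistant, 29.6 and 27.5 CPM in paclitaxel-resistant, 27.9 and 30.2 CPM in dual-resistant, and 33.0 and 29.3 CPM in control libraries. CYRIB encodes a regulator of the actin cytoskeleton that binds RAC1, and the peak within it, chr8:129939570-129940570, had 65.7 and 66.8 CPM in cisplatin-resistant, 41.2 and 47.6 CPM in paclitaxel-resistant, 46.4 and 39.8 CPM in dual-resistant, and 46.8 and 47.6 CPM in control libraries. At both peaks the cisplatin-resistant libraries were highest. The other lines overlapped, except that at the CYRIB peak both dual-resistant libraries lay just below both control libraries. That difference of -0.14 did not pass the limma test (adjusted p = 0.457).

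Most of the peaks that rose in the paclitaxel-resistant line lay in 1 distal bin, 0.76 to 1.26 Mb past MYC, which was singled out after the values of all bins were seen. Its 48 peaks summed to 374 CPM in the cisplatin-resistant line, 321 CPM in the paclitaxel-resistant line, 139 CPM in the dual-resistant line and 215 CPM in control. Relative to control this was 1.50-fold in the paclitaxel-resistant line and 0.646-fold in the dual-resistant line. Of the 48 peaks, 18 rose and 10 fell in the paclitaxel-resistant line; none rose and 12 fell in the dual-resistant line. In dual- minus paclitaxel-resistant 9 were higher and 21 lower. In the other 344 peaks of the region 5 rose and 22 fell in the paclitaxel-resistant line, and 9 rose and 8 fell in the dual-resistant line. In dual- minus paclitaxel-resistant 32 of them were higher and 2 lower. The shares of all peaks called higher and lower were 7.26% and 9.17%, 8.11% and 5.39%, and 14.9% and 7.44% in that order of comparisons.

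Within this bin, the peaks that rose in the paclitaxel-resistant line lay between 0.947 and 1.142 Mb. The peak chr8:128852076-128853076, 1117 kb past the MYC start and between genes, had 9.12 and 8.07 CPM in cisplatin-resistant, 37.8 and 41.0 CPM in paclitaxel-resistant, 1.98 and 1.72 CPM in dual-resistant, and 4.55 and 4.25 CPM in control libraries. No pair of lines overlapped there. It rose 8.96-fold in the paclitaxel-resistant line, a log2 difference of 3.03 (SE 0.23, adjusted p = 3.54e-21), fell by 1.06 in the dual-resistant line (adjusted p = 0.000288), and dual- minus paclitaxel-resistant was -4.09 (adjusted p = 2.06e-29).

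The neighbouring peak chr8:128854264-128855264, at 1119 kb, had 27.7 and 25.1 CPM in cisplatin-resistant, 42.7 and 40.7 CPM in paclitaxel-resistant, 5.81 and 3.22 CPM in dual-resistant, and 8.71 and 8.24 CPM in control libraries. The order of the lines was paclitaxel-resistant, cisplatin-resistant, control and dual-resistant, with no overlap. The paclitaxel-resistant difference was 2.23 (adjusted p = 1.42e-19) and dual- minus paclitaxel-resistant -3.12 (adjusted p = 1.64e-28). The dual-resistant difference of -0.89 (adjusted p = 0.000102) missed the threshold without dual-resistant library 2, at -0.51 (adjusted p = 0.0938).

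At 1139 kb, chr8:128874237-128875237 had 9.34 and 11.3 CPM in cisplatin-resistant, 42.1 and 41.5 CPM in paclitaxel-resistant, 13.5 and 14.1 CPM in dual-resistant, and 15.9 and 17.0 CPM in control libraries. The paclitaxel-resistant libraries alone were high, and the cisplatin-resistant ones were the lowest. It rose by 1.32 in the paclitaxel-resistant line (adjusted p = 3.03e-11) and was lower by 1.57 in dual- minus paclitaxel-resistant (-1.57, adjusted p = 3.18e-14). The dual-resistant difference from control of -0.25 did not pass the test (adjusted p = 0.356).

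Nearer to MYC, at 950 kb, chr8:128684859-128685859 was shared by the cisplatin- and paclitaxel-resistant lines. It had 16.8 and 19.4 CPM in cisplatin-resistant, 11.0 and 13.6 CPM in paclitaxel-resistant, 0.495 and 0.967 CPM in dual-resistant, and 2.60 and 2.06 CPM in control libraries. Both single-drug lines lay above control and the dual-resistant line below it. The paclitaxel-resistant difference was 2.18 (adjusted p = 5.44e-10), the dual-resistant difference -1.22 (adjusted p = 0.000794) and dual- minus paclitaxel-resistant -3.40 (adjusted p = 1.44e-18).

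Beyond 1.2 Mb, a limit also set after the values were seen, the paclitaxel-resistant calls ran the other way. Of the 7 peaks from there to the end of the bin, all 7 fell in the paclitaxel-resistant line, and 3 fell and none rose in the dual-resistant line. The 10 paclitaxel-resistant falls of the bin began at 0.954 Mb, so some lay before this limit, in or near the stretch of the rises. In the cisplatin-resistant line 6 of the 7 had a difference below 0, with no test, as had 40 of the 392 peaks of the region. The peak chr8:128993934-128994934, at 1259 kb, had 0.450 and 0.585 CPM in cisplatin-resistant, 0.486 and 0.787 CPM in paclitaxel-resistant, 4.45 and 2.15 CPM in dual-resistant, and 16.0 and 15.1 CPM in control libraries. Control cells were high, the dual-resistant line lay between, and both single-drug lines were near the 3-read level. It fell by 3.83 in the paclitaxel-resistant line (adjusted p = 1.04e-14) and by 2.14 in the dual-resistant line (adjusted p = 7.49e-06), with 1.69 for dual- minus paclitaxel-resistant (adjusted p = 0.000419) and -3.98 for the cisplatin-resistant line.

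A pair of peaks in the non-coding gene LINC00976 fell in the paclitaxel-resistant line and were also near 0 in the cisplatin-resistant line. The peak chr8:128959468-128960468 had 0 and 0.234 CPM in cisplatin-resistant, 0 and 0.225 CPM in paclitaxel-resistant, 4.70 and 4.41 CPM in dual-resistant, and 7.28 and 8.88 CPM in control libraries. The peak chr8:128964007-128965007 had 0.450 and 1.40 CPM in cisplatin-resistant, 0.364 and 0.225 CPM in paclitaxel-resistant, 7.30 and 6.66 CPM in dual-resistant, and 8.71 and 12.1 CPM in control libraries. The paclitaxel-resistant values at both lay at or under the level of 3 reads. The paclitaxel-resistant differences were -3.83 (adjusted p = 4.33e-12) and -3.77 (adjusted p = 7.46e-15), values that depend on the added 0.5 CPM. Dual- minus paclitaxel-resistant was 3.07 (adjusted p = 1.56e-08) and 3.24 (adjusted p = 9.02e-12), and the dual-resistant differences from control, -0.76 (adjusted p = 0.284) and -0.53 (adjusted p = 0.410), did not pass the test.

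A pair of other peaks of the bin had lower dual-resistant values relative to control. At 1241 kb, chr8:128975542-128976542 had 0.450 and 1.05 CPM in cisplatin-resistant, 0.971 and 0.225 CPM in paclitaxel-resistant, 2.97 and 3.01 CPM in dual-resistant, and 8.45 and 10.8 CPM in control libraries. It fell by 3.28 in the paclitaxel-resistant line (adjusted p = 7.68e-11), and dual- minus paclitaxel-resistant was 1.76 (adjusted p = 0.000501). Its fall of 1.53 in the dual-resistant line (adjusted p = 0.00415) missed the threshold without dual-resistant library 1 (-1.52, adjusted p = 0.0525) or control library 2 (-1.36, adjusted p = 0.103). At 1192 kb, chr8:128927212-128928212 had 1.01 and 0.702 CPM in cisplatin-resistant, 0.121 and 0.450 CPM in paclitaxel-resistant, 0.495 and 2.36 CPM in dual-resistant, and 4.68 and 5.28 CPM in control libraries. It fell by 2.83 in the paclitaxel-resistant line (adjusted p = 7.21e-07). Its dual-resistant libraries were uneven, and its fall of 1.70 there (adjusted p = 0.00616) missed the threshold without dual-resistant library 1 (-0.93, adjusted p = 0.359) or control library 2 (-1.62, adjusted p = 0.0792).

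**Figure D4:**
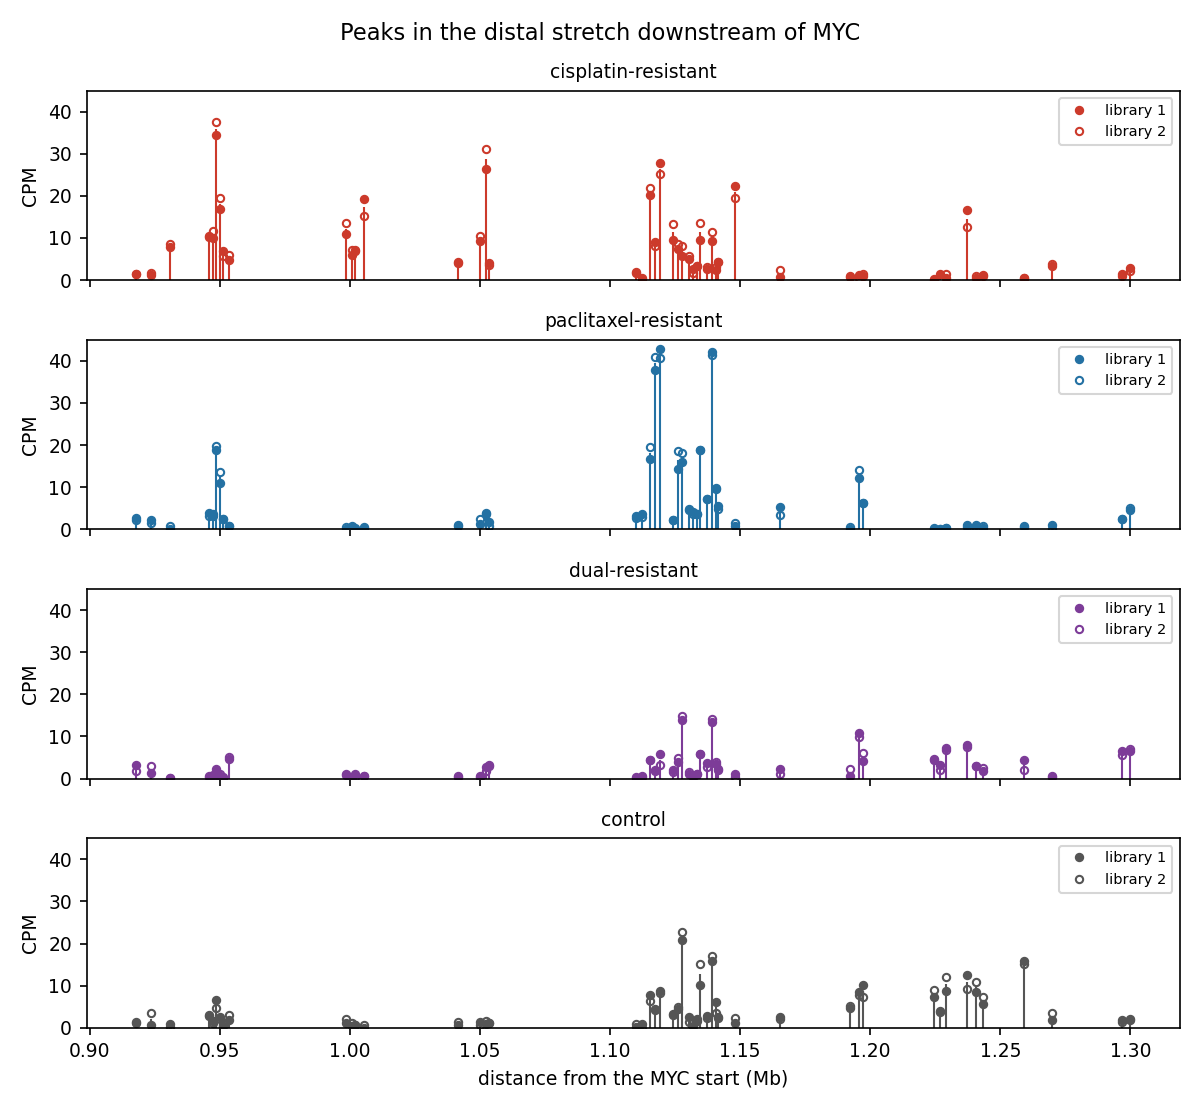
CPM of each peak on the vertical axis against distance from the MYC start in Mb, 1 panel per line, with filled and open points for the 2 libraries and lines at their mean. Paclitaxel-resistant libraries exceed 37 CPM at 3 peaks between 1.11 and 1.14 Mb, and control libraries exceed 15 CPM at 1.259 Mb, where both single-drug lines are under 1 CPM.

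Few peaks rose in the dual-resistant line. At 1297 kb, chr8:129031768-129032768 had 1.35 and 0.935 CPM in cisplatin-resistant, 2.43 and 2.36 CPM in paclitaxel-resistant, 6.43 and 5.59 CPM in dual-resistant, and 1.95 and 1.29 CPM in control libraries. At 1300 kb, chr8:129034824-129035824 had 2.93 and 2.22 CPM in cisplatin-resistant, 4.49 and 4.94 CPM in paclitaxel-resistant, 6.43 and 7.09 CPM in dual-resistant, and 1.95 and 2.19 CPM in control libraries. The dual-resistant libraries were the highest at both. They rose by 1.63 (adjusted p = 0.000854) and 1.50 (adjusted p = 0.000182). Dual- minus paclitaxel-resistant was 1.17 at the nearer peak (adjusted p = 0.0182) and 0.48 at the farther one (adjusted p = 0.295), which also rose in the paclitaxel-resistant line, by 1.02 (adjusted p = 0.0146). Within CCDC26, chr8:129449262-129450262 had 2.14 and 3.27 CPM in cisplatin-resistant, 2.19 and 2.02 CPM in paclitaxel-resistant, 3.59 and 4.51 CPM in dual-resistant, and 1.82 and 1.16 CPM in control libraries. Its rise of 1.21 in the dual-resistant line (adjusted p = 0.0193) missed the threshold without either dual-resistant library, at 1.35 (adjusted p = 0.0653) and 1.06 (adjusted p = 0.174), or control library 2, at 0.96 (adjusted p = 0.180).

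A peak between CCDC26 and GSDMC fell steeply in the paclitaxel-resistant line while the cisplatin-resistant libraries overlapped control. The peak chr8:129685148-129686148, 1950 kb past the MYC start, had 13.4 and 15.6 CPM in cisplatin-resistant, 0.850 and 0.225 CPM in paclitaxel-resistant, 5.56 and 7.20 CPM in dual-resistant, and 13.1 and 14.8 CPM in control libraries. The cisplatin-resistant and control libraries overlapped, the dual-resistant ones were lower and the paclitaxel-resistant ones lowest. It fell by 3.87 in the paclitaxel-resistant line (adjusted p = 1.16e-23) and by 1.08 in the dual-resistant line (adjusted p = 0.00204), and dual- minus paclitaxel-resistant was 2.79 (adjusted p = 2.83e-15).

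The limits of the region were round positions, and the peaks next to them were as follows. Just inside the lower limit, peaks starting at 124999972 and 125023464 averaged 8.17 and 2.68 CPM in the cisplatin-resistant line and 6.27 and 0.646 CPM in control, and just outside it peaks starting at 124998819 and 124997722 averaged 12.6 and 70.3 CPM in the cisplatin-resistant line and 9.38 and 56.5 CPM in control. Just inside the upper limit, peaks starting at 129997767 and 129999471 averaged 4.58 and 9.71 CPM in the cisplatin-resistant line and 2.91 and 1.68 CPM in control, and just outside it peaks starting at 130015000 and 130017401 averaged 16.5 and 5.07 CPM in the cisplatin-resistant line and 11.8 and 3.62 CPM in control.

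The higher signal of the cisplatin-resistant line went on beyond the region along the long arm of chromosome 8. Its median difference was 0.98 in the window from 115 to 120 Mb, 0.95 from 120 to 125 Mb, 1.11 in the region, 0.77 from 130 to 135 Mb and 0.33 from 135 to 140 Mb. It was 0.50 again from 140 to 145 Mb. Before these windows it was 0.55 from 70 to 75 Mb, 0.50 from 95 to 100 Mb and 0.46 from 110 to 115 Mb. Every window from 65 to 145 Mb had a median above 0, the lowest 0.19 from 75 to 80 Mb. Of the 29 windows of the chromosome, 3 had a median above 0.9. In the paclitaxel- and dual-resistant lines the region had medians of -0.21 and 0.05, beside -0.21 and 0.07 in the window before it and -0.26 and 0.27 in the window after it. The summed signal of the window after it differed from control by -0.23 (adjusted p = 3.88e-15) and 0.37 (adjusted p = 5.19e-36) in those lines.

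**Figure D5:**
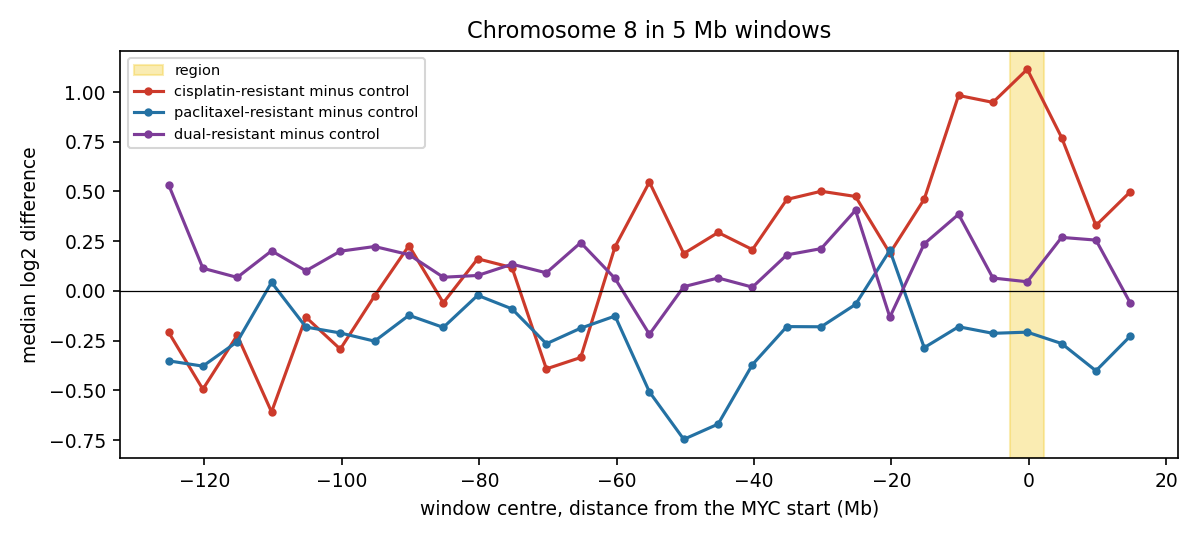
Median log2 difference from control over the peaks of each 5 Mb window of chromosome 8, against the distance of the window centre from the MYC start in Mb, 1 line per resistant line. The shaded region stands at 1.11 in the cisplatin-resistant line, with 0.98 and 0.95 in the windows before it.

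The way the peaks were found moves with this result. Each peak of the merged set carries the name of a peak called in 1 library, and the line of that library was counted. Of the 392 peaks, 315 (80.4%) carry a cisplatin-resistant name, 25 a paclitaxel-resistant, 52 a dual-resistant and none a control name, where the shares over all peaks were 34.3%, 23.0%, 39.5% and 3.18%. Peaks with a cisplatin-resistant name had a median cisplatin-resistant difference of 1.54 in the region and 0.89 over all such peaks. The other 77 peaks had a median of 0.07 and summed to 346 CPM in the cisplatin-resistant line, 452 CPM in the paclitaxel-resistant line, 407 CPM in the dual-resistant line and 399 CPM in control. The name depends on the values, this split was chosen after they were seen, and its part in the result was not tested.

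MYC acts with a network of partner and antagonist proteins that dimerise with MAX or with its relative MLX, and peaks at the starts of 13 such genes, MYC among them, were measured. In the paclitaxel-resistant line 3 of the 13 rose and none fell, where 12.8% of all peaks at gene starts rose and 10.2% fell. They were MYC and its antagonists MXI1 and MXD1, named here after their values were seen. MXI1 averaged 62.5 CPM in the cisplatin-resistant line, 48.8 CPM in the paclitaxel-resistant line, 41.8 CPM in the dual-resistant line and 31.9 CPM in control, and rose by 0.60 in the paclitaxel-resistant line (adjusted p = 3.88e-06). MXD1 averaged 186, 168, 112 and 137 CPM in the same order, a rise of 0.29 in the paclitaxel-resistant line (adjusted p = 0.000407). Median-ratio scaling gave 6 higher and none lower in the paclitaxel-resistant line.

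In the dual-resistant line 1 gene of the network rose and 3 fell, where 4.72% of peaks at gene starts rose and 15.2% fell. MXI1 rose by 0.38 (adjusted p = 0.00703), a call that was not made by edgeR (0.29, adjusted p = 0.0662) or DESeq2 (0.31, adjusted p = 0.122), while MXD1, MXD3 and MXD4 fell by 0.29, 0.39 and 0.41. Under quantile scaling MXD1 and MXD3 did not pass the test, at -0.08 (adjusted p = 0.486) and -0.25 (adjusted p = 0.100). Dual- minus paclitaxel-resistant had 1 higher and 7 lower of 13, where 7.31% were higher and 23.6% lower, and 2 higher and 4 lower under quantile scaling. In the cisplatin-resistant line 3 were higher and 3 lower, where 10.7% were higher and 28.7% lower, and 5 were higher and 3 lower under median-ratio or quantile scaling. MYC, whose values in this contrast entered the choice of the region, was among the 3 higher, and nothing is read from these counts.

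Against control, most peaks of genes that MYC is known to activate were not called. Of 30 such genes, for ribosome production, nucleotide and amino acid metabolism and the cell cycle, 2 rose and 3 fell in the paclitaxel-resistant line (12.8% and 10.2% of peaks at gene starts), and none rose and 2 fell in the dual-resistant line (4.72% and 15.2%). Their median differences were 0.03 and -0.15, beside 0.00 and -0.14 over all peaks at gene starts. In the paclitaxel-resistant line LDHA and EIF4A1 rose by 0.31 (adjusted p = 0.0393) and 0.25 (adjusted p = 0.0299), and ODC1, CCND2 and NPM1 fell by 0.67, 0.42 and 0.29. Median-ratio scaling gave 7 higher and 1 lower, and quantile scaling none higher and 3 lower in the paclitaxel-resistant line, so the calls depended on the scaling. In the dual-resistant line CCND2, a cyclin gene, fell by 0.82 (adjusted p = 1.48e-06) and NOLC1 by 0.42 (adjusted p = 0.000533). Under median-ratio scaling and by edgeR, 9 of the 30 were lower in that line. Dual- minus paclitaxel-resistant had none higher and 9 lower of the 30, where 7.31% were higher and 23.6% lower. Its median was -0.16 beside -0.14. Lower calls there were 17 under median-ratio scaling, 17 by edgeR and 16 by DESeq2, with none higher. Quantile scaling gave 2 higher and 1 lower. Shares over all gene starts were not taken under those settings. In the cisplatin-resistant line 1 of the 30 was higher and 7 lower, where 10.7% of peaks at gene starts were higher and 28.7% lower. The median was -0.18 beside -0.20 over all peaks at gene starts. Under median-ratio or quantile scaling 2 were higher and 1 lower, by edgeR 1 and 2, and by DESeq2 1 and 1.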

How the data were processed

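ATAC-seq values were the authors' deposited CPM in 1 table of 159451 merged peaks for 8 libraries, each scaled to the library's total over these peaks. Per the submitters' processing notes, Bowtie2, Picard, MACS2 and the build hg38 were used; the sources used here give no versions, settings or rule for merging peaks. The region was chr8:125000001-130000000 and the MYC promoter peak chr8:127735501-127736501. The members and gene lists were chosen with earlier results of these data known.

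The 158698 peaks that reached 1 CPM in 2 or more libraries (all 392 of the region among them) were fitted as log2(CPM + 0.5) with limma 3.58.1 (trend, all 4 groups, R 4.3.3), two-sided, with Benjamini-Hochberg adjustment over all of them and calls at an adjusted p under 0.05. Summed CPM of 5 Mb windows was fitted in the same way. Whole reads were recovered from the CPM steps (100% of values within 0.01 read) for edgeR 4.0.16, which called 29694 peaks higher and 18502 lower in the cisplatin-resistant line, 15479 and 9793 in the paclitaxel-resistant line and 10118 and 11685 in the dual-resistant line, and for DESeq2 1.42.0. The code was tested on simulated data.

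Gene positions came from RefSeq (GRCh38.p14); a gene's peak was the strongest within 1 kb of its start, or of either end where, as on chromosome 8, no strand was held. Named were the MYC promoter, the peaks at gene ends, the 3 distal peaks furthest above and below the region's median in each contrast among those with no overlap of libraries and at least 3 CPM, and the 5 strongest distal peaks. Of the gene lists none met the naming rule. Of the marker lists, a gene is not reported here. Alternatives were other pseudocounts, filters, scalings, tools and groups in the fit, the replicate number as a block, members within 1 Mb of MYC, and leaving out each library. Same-numbered libraries did not deviate together (correlations from -0.000587 to 0.00332). Intervals and floors cover counting error or library spread only.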

Additional observations from a re-analysis of the deposited data

Results flagged for a closer look

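At 13 of the named peaks the differences of the dual- and the paclitaxel-resistant line from control differed from each other at an adjusted p under 0.05 in limma. Both differences use the same control libraries, so the test compares the dual-resistant with the paclitaxel-resistant libraries directly, and 22.4% of all peaks passed it. At 6 peaks the dual-resistant line was lower: the MYC promoter (-0.58), TRIB1 (-0.45), and the peaks 950 kb (-3.40), 1117 kb (-4.09), 1119 kb (-3.12) and 1139 kb (-1.57) past the MYC start. At 7 it was higher: the CCDC26 end (1.53) and the peaks at 1225 kb (3.07), 1229 kb (3.24), 1241 kb (1.76), 1259 kb (1.69), 1297 kb (1.17) and 1950 kb (2.79). Many of these peaks were named because they differed in this contrast or in 1 of the 2 that make it up. Causes were not tested.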

How the results depend on the processing

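For the named peaks, 1369 of 1404 values over the alternatives kept their side of the threshold, 23 lost and 12 gained the call, and none reversed with a call. Values called in neither setting were counted as kept even where their direction changed. The MYC promoter in the cisplatin-resistant line turned to -0.07 (-0.0675) once the median of the region was subtracted, and stood at 0.94 (paclitaxel-resistant) and -0.86 (dual- minus paclitaxel-resistant). In the dual-resistant line it reached 0.31 under quantile scaling. The region's sum in the paclitaxel-resistant line reversed to 0.142 under median-ratio scaling. That in the dual-resistant line passed the threshold at -0.0891 (median-ratio), -0.107 (quantile) and -0.0553 (edgeR). Dual- minus paclitaxel-resistant reversed to -0.231, -0.128, -0.0854 and, by DESeq2, -0.0753. DESeq2 gave 17 lower peaks in the paclitaxel-resistant line, 3 higher in the dual-resistant line and 18 higher in dual- minus paclitaxel-resistant. Over all 158698 peaks it gave 6362, 6659 and 8416 such calls. In dual- minus paclitaxel-resistant, median-ratio, quantile and edgeR gave 23, 20 and 26 higher and edgeR 35 lower. Of the 187 peaks within 1 Mb of MYC, fewer by construction, 104 were higher and 1 lower in the cisplatin-resistant line. The counts were 7 and 10 in the paclitaxel-resistant, 3 and 5 in the dual-resistant, and 13 and 6 in dual- minus paclitaxel-resistant. Over all peaks the shares were 18.3% and 14.9%, 7.26% and 9.17%, 8.11% and 5.39%, and 14.9% and 7.44% in that order. The cisplatin-resistant contrast chose the region, so nothing is read from its counts here or in the next paragraph.

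Leaving out 1 library at a time, which assumes that a lone library varies like the others, gave 145 to 224 higher and 13 to 15 lower peaks in the cisplatin-resistant line, 14 to 24 and 22 to 31 in the paclitaxel-resistant line, 2 to 10 and 12 to 21 in the dual-resistant line, and 24 to 44 and 19 to 23 in dual- minus paclitaxel-resistant. The MYC promoter ranged from 0.93 to 1.16, 0.615 to 0.849, 0.0319 to 0.266 and -0.678 to -0.489, and the region's sum from 1.38 to 1.42, -0.0389 to -0.0198, -0.0556 to 0.0359 and -0.0262 to 0.0653 in the same order. The dual-resistant sum passed the threshold without dual-resistant library 1 (-0.0556) and dual- minus paclitaxel-resistant without dual-resistant library 2 (0.0653). With the replicate block, counts of higher and lower peaks were 222 and 15, 23 and 34, 10 and 20, and 41 and 23 in that order, and no call of the MYC promoter changed; the labels share only a number. Except where fewer peaks or libraries entered, the cause was not tested.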
